A study of Mus musculus with 2 samples.

Results

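The protein components of the cytosolic ribosome were examined in cultured mouse primordial germ cells (PGCs), the embryonic precursors of eggs and sperm. Genes were taken by symbol, as Rpl or Rps followed by a number and at most 1 of the letters a, x, y or l, together with Rplp0, Rplp1, Rplp2 and Rpsa. Of the 23320 gene symbols present in both libraries, 74 met this rule. Of these, 40 encode proteins of the large subunit, 29 encode proteins of the small subunit, and 5 are paralogue forms whose symbol ends in l (Rpl3l, Rpl10l, Rpl39l, Rps4l and Rps27l). The 69 genes other than paralogue forms are called core genes here. All 74 had a value above 0 in both libraries.

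PGCs with intense GFP were sorted from E13.5 embryos that carried the Oct4-deltaPE-GFP reporter on one parental side (C57BL/6J males mated with MCH females). Cells of 1 culture received a control lentivirus and cells of the other a lentivirus that over-expresses Klf9, a Krüppel-like transcription factor, both at a multiplicity of infection of 5, and both were cultured for 1 day. The 2 libraries are called control PGCs and Klf9-OE PGCs. The medium is described as containing bFGF in the sample labels and as lacking it where the study presents this experiment, in the same way for both libraries. Klf9 itself, measured as a check of the labels, had an FPKM (fragments per kilobase of transcript, scaled to the number of mapped fragments) of 2.27 (95% interval 1.97 to 2.57) in the control library and of 80.8 (77.0 to 84.5) in the Klf9-OE library.

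Each condition had 1 library, so no difference given here has a replicate check or a p-value. The 95% interval beside a level is the one Cufflinks estimated within a library, and libraries whose intervals are apart are compared as libraries and not as conditions. A difference is log2(FPKM + 0.1) in Klf9-OE PGCs minus that in control PGCs. Genes at least 25% higher or at least 20% lower in Klf9-OE PGCs, which are equal steps up and down on the log2 scale, are counted as past the smaller limit. Shares over all genes refer to the 18742 symbols above 0 in at least 1 library, or to the 18626 of them with usable intervals, and shares over highly expressed genes to the 834 genes that are not among the 74 and reached an FPKM of 100 in at least 1 library (827 with usable intervals).

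The cells carried the markers of their label. All 11 PGC markers examined were above 0 in both libraries, with a summed FPKM of 1573.8 in control PGCs and 1323.1 in Klf9-OE PGCs. Of the 11, 10 were lower in the Klf9-OE library, 8 of them with intervals apart and 5 by at least 20%, with a median difference of -0.31. Of all genes tested, 52.0% were lower and 19.8% at least 20% lower. Among all genes with usable intervals, 14.4% were apart and lower. Dppa3, a chromatin factor of the early germ line, had an FPKM of 294.2 and 178.9, and Nanos3, which maintains PGCs, one of 24.6 and 17.5. Dazl, an RNA-binding protein of germ cells, was the 1 marker with a higher level, 351.5 and 377.9. Markers of other cells of the gonad were low. The sum of 8 gonad somatic markers was 25.8 in control PGCs and 31.1 in Klf9-OE PGCs, that of 4 endothelial markers 3.43 and 6.31, and that of 4 macrophage markers 4.17 and 5.34. Of 5 erythroid markers 3 were matched, with a sum of 0.862 and 0.714. All of these matched markers were above 0 in both libraries. Their part in the differences below was not tested.

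The ribosome translates messenger RNA into protein. Its small subunit binds the messenger RNA and reads codons, its large subunit joins amino acids, and each protein of either subunit is present as a single copy in a ribosome apart from the paired P-stalk proteins. Most of the messages for these proteins begin with a run of pyrimidines, the terminal oligopyrimidine (TOP) tract, through which mTORC1 and LARP1 control their translation together. In mammals most of the genes have many processed pseudogenes, which are copies of the messenger RNA inserted elsewhere in the genome.

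The start of the RNA is shown for selected genes, because the TOP tract is the sequence feature that joins this gene family. All of them except Rps6 and Rpl28 are also named in the comparisons below. Each window holds 10 bases before the RefSeq start and 20 bases from it onwards, on the strand of the gene, and capitals mark a C followed by at least 4 pyrimidines that starts within 5 bases of the RefSeq start, with the run extended to its end. Sequences and starts are those of RefSeq on mm10. The first 7 genes had such a run and the last 4 had none. This selection does not reflect the share of genes with a run, which is given after it.
Rps18 (chr17:33955646-33955675, minus strand): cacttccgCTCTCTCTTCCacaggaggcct
Rps6 (chr4:86857348-86857377, minus strand): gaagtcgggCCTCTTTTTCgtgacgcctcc
Rpl15 (chr14:18270967-18270996, minus strand): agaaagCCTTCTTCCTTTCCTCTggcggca
Rpl28 (chr7:4792955-4792984, plus strand): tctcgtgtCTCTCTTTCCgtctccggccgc
Rps23 (chr13:90923112-90923141, plus strand): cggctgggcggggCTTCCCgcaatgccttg
Rpl31 (chr1:39367841-39367870, plus strand): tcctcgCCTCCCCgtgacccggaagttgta
Rpl39 (chrX:37085203-37085232, minus strand): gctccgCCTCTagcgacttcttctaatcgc
Rpsa (chr9:120127756-120127785, plus strand): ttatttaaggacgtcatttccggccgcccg
Rplp0 (chr5:115559457-115559486, plus strand): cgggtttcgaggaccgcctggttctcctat
Rpl27 (chr11:101442235-101442264, plus strand): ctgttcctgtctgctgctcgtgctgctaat
Rpl39l (chr16:10170218-10170247, plus strand): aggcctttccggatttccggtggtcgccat

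Of the 55 genes with a RefSeq promoter, 25 (45.5%) had such a run, against 21.2% of 27025 genes with a promoter in the same table. With a start of the run exactly at the RefSeq start, the numbers were 12 of 55 (21.8%) and 3.01%. The run was found in 14 of 30 large subunit genes and in 10 of 21 small subunit genes. It was present in genes that differed in either direction, among them Rpl31, the gene with the largest difference, and Rpl39, which was higher in the Klf9-OE library. The locus bounds of Rpl31 and of Rpl39 differed between the libraries, as given below. A start that is annotated a few bases away from the true one moves the window, so the absence of a run says only that these letters are not there.

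Within 250 bases before and 50 bases after the start, motifs were searched on both strands unless stated. The GC box GGGCGG was in 34 of 55 promoters (61.8%, all genes 38.2%) and the ETS site CCGGAAG in 23 (41.8%, all genes 9.93%). CACCC, the core of sites bound by Krüppel-like factors, was in 33 (60.0%, all genes 59.8%). The YY1-like site AAGATGGC was in 2 (3.64%, all genes 3.19%), and TATAAA, on the sense strand only, was in 5 (9.09%, all genes 9.77%). A stretch of GGGCGG can also hold part of other GC-rich motifs. The last 80 bases before the start and the first 20 bases after it are shown for Rpl31 and Rps21, which differed much between the libraries, and for Rpl39 with its autosomal paralogue form Rpl39l. Capitals mark matches to the GC box, the CACCC core and the ETS site on either strand.
Rpl31 (chr1:39367771-39367870, plus strand): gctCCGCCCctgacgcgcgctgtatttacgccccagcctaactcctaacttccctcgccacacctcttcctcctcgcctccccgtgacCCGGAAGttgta
Rps21 (chr2:180257299-180257398, plus strand): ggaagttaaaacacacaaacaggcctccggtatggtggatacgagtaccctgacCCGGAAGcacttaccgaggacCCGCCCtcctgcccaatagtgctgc
Rpl39 (chrX:37085203-37085302, minus strand): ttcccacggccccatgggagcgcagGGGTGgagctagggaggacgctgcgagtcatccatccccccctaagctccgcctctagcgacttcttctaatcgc
Rpl39l (chr16:10170148-10170247, plus strand): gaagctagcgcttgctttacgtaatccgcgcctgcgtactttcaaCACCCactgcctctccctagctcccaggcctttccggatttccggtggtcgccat

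The ribosomal protein genes were among the most highly expressed genes of both libraries. Their summed FPKM was 103289.3 in control PGCs, which is 18.7% of the FPKM of all named loci, and 93827.4 in Klf9-OE PGCs, which is 17.7%. Large subunit core genes took 10.1% and 9.74%, and small subunit core genes 8.45% and 7.83%. The share is of FPKM, a quantity per length, and not of reads. In these bulk samples, fewer cells of a type and less RNA per cell cannot be told apart.

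Core genes did not have equal levels. The highest FPKM was 28.3-fold above the lowest in control PGCs and 28.8-fold in Klf9-OE PGCs, and 43 of the 69 core genes lay between 1000 and 2000 in each library. The small subunit gene Rps18, whose protein sits in the head of the subunit, had the highest level in both, 3779.4 (95% interval 3618.1 to 3940.8) in the control library and 3186.3 (3050.4 to 3322.3) in the Klf9-OE library. The intervals of Rps18 were apart. After it in control PGCs came Rpl23a with 3022.2, Rplp1 with 3014.0 and Rps28 with 3009.4, whose intervals overlapped one another.

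Among the other highly expressed small subunit genes, Rps15 had 2288.7 and 2179.4, with overlapping intervals, and Rps2 had 2123.6 and 1991.9, also overlapping. Rps28 had 3009.4 in control PGCs and 2813.3 in Klf9-OE PGCs, again with overlap. Rps21 and Rpsa complete the 6 highest of this subunit and are described with the largest differences.

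Of the highest large subunit genes, Rpl23a, which lies near the exit of the peptide tunnel, had 3022.2 (2986.7 to 3057.6) and 2720.5 (2690.1 to 2751.0). Rpl32 had 2715.4 and 2427.6. Both were lower in Klf9-OE PGCs with intervals apart. Rpl18 had 1977.0 and 1920.4 and Rpl35a 1959.8 and 1844.0, with overlapping intervals, and Rpl8 had 1904.3 and 1605.9, with intervals apart.

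At the lower end, Rps15a had 133.7 in control PGCs and 110.7 in Klf9-OE PGCs, the lowest level of a core gene in either library. The order of the genes differed little between the libraries: 57 of 74 kept their rank within 5 places, and the log2 levels had a Spearman correlation of 0.96 and a Pearson correlation of 0.99 across the 74 genes. These are descriptions across genes, which are not replicates.

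**Figure D1:**
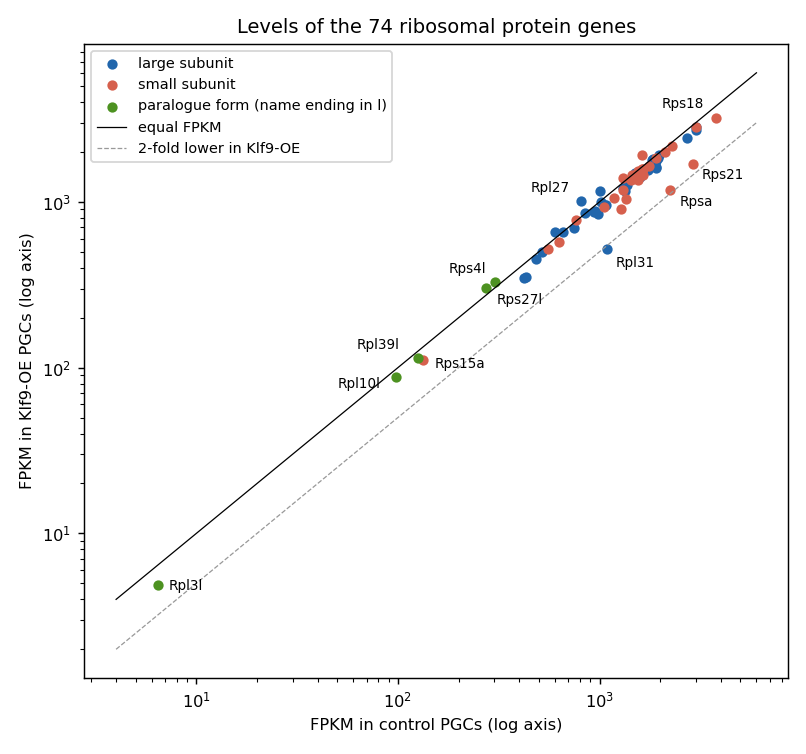
FPKM of the 74 ribosomal protein genes in control PGCs (x axis) and in Klf9-OE PGCs (y axis), both on log axes, 1 point a gene, with a solid line at equal FPKM and a dashed line at a 2-fold lower FPKM in Klf9-OE PGCs. Most points lie close to the solid line or just under it, Rpl31 lies on the far side of the dashed line, and the paralogue forms lie below the core genes except Rps15a.

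Most ribosomal protein genes were slightly lower in the Klf9-OE library. Among the 74 genes, 64 (86.5%) had a lower FPKM and 10 a higher one. Of all genes tested 52.0% were lower, and of the other highly expressed genes 59.8%. The median difference was -0.11 (quartiles -0.17 and -0.05), that of all genes tested -0.02 (quartiles -0.24 and 0.21) and that of the other highly expressed genes -0.05. Rescaled to the same sum in both libraries, 53 of the 74 genes (71.6%) were lower and 21 higher, with a median of -0.046, and the medians of all genes tested and of the other highly expressed genes turned to 0.04 and 0.02. The size of the general shift therefore depended on the scale. As deposited, 43 of the 69 core genes lay within 10% of their control level.

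The medians of the subunits were close. In the large subunit, 36 of 40 core genes were lower, with a median difference of -0.11 (range -1.08 to 0.31). In the small subunit, 25 of 29 were lower, with a median of -0.10 (range -0.92 to 0.24). The 65 autosomal core genes had a median of -0.11 and the 4 X-linked genes one of 0.04.

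Few of the differences were large. At least 20% lower were 6 of 74 genes (Rpl31, Rpsa, Rps21, Rps19, Rpl3l and Rps23) and at least 25% higher none. Of all genes tested, 19.8% passed the limit for lower values and 18.8% that for higher ones, and of the other highly expressed genes 14.3% and 9.23%. Rpl31 alone was 2-fold lower or more (all genes tested 4%), and no ribosomal protein gene was 2-fold higher or more (all genes tested 4.52%). The share of ribosomal protein genes past these limits was thus below that of all genes tested in each direction.

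The Cufflinks intervals were apart for 44 genes, 39 of them lower and 5 higher in Klf9-OE PGCs. Over all genes with usable intervals, 14.4% were apart and lower and 11.2% apart and higher, and over the other highly expressed genes 26.7% and 13.7%. Intervals are narrow at these levels, with a median half-width of 4.36% of the FPKM in control PGCs and 4.34% in Klf9-OE PGCs for genes whose locus Cufflinks had assembled, and of 1.96% and 1.84% for genes that kept their annotated locus. Rescaled to the same sum, 18 genes were apart and lower and 8 apart and higher. The shares over other genes above are as deposited, so they are no background for the rescaled counts. The interval of Rpl4 in control PGCs (0 to 15614.2) and that of Rpl14 in Klf9-OE PGCs (0 to 12115.1) were too wide to bear on a difference.

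**Figure D2:**
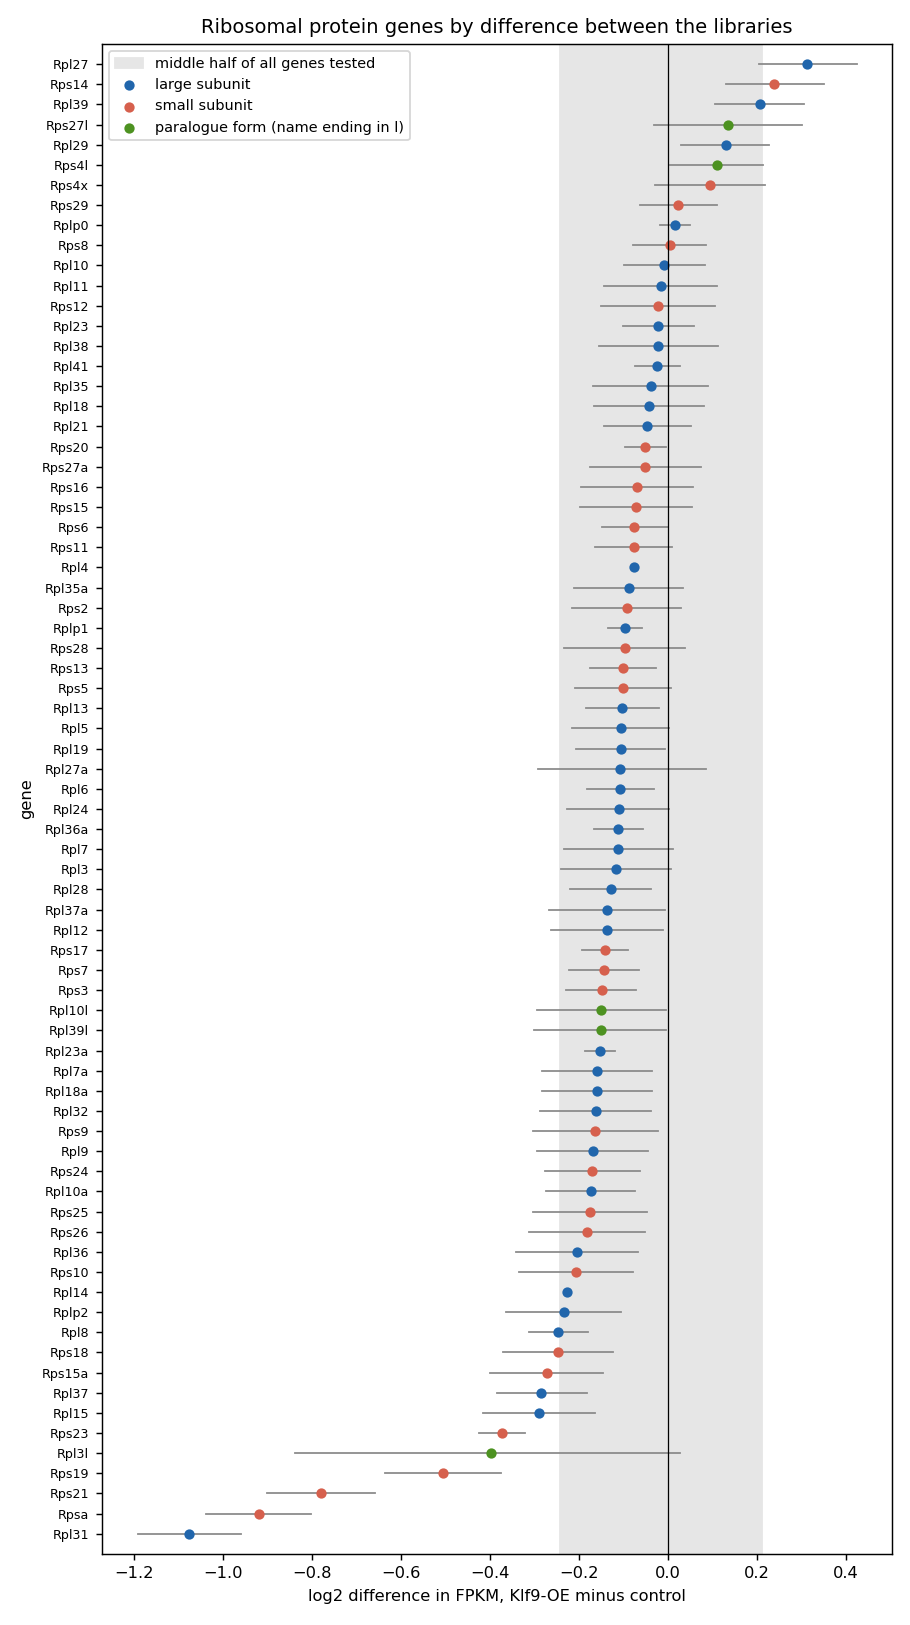
Difference in log2(FPKM + 0.1), Klf9-OE minus control (x axis), for each of the 74 genes (y axis, sorted), coloured by subunit or as a paralogue form. Lines run from the smallest to the largest difference that the 95% Cufflinks intervals allow and are left out for Rpl4 and Rpl14, and the grey band spans the quartiles of all genes tested (-0.24 to 0.21). Most genes lie between 0 and -0.24, and Rpl31, Rpsa, Rps21 and Rps19 stand apart at the lower end.

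The largest difference was that of Rpl31, a large subunit protein at the rim of the exit tunnel (chr1:39367800-39371910 of mm10 in the control file). Its FPKM was 1088.0 (1049.1 to 1126.9) in the control library and 516.4 (493.4 to 539.4) in the Klf9-OE library, a log2 difference of -1.08. The difference of Rpl31 was larger than its intervals, and it moved from rank 48 to rank 64 of 74.

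Rpsa, the laminin receptor protein of the small subunit (chr9:120127754-120135418 in the control file), had an FPKM of 2243.8 (2155.3 to 2332.2) in the control library and 1186.5 (1136.7 to 1236.3) in the Klf9-OE library, a log2 difference of -0.92. Rps21, which contacts Rpsa on the small subunit (chr2:180257379-180258444), had 2894.8 (2783.7 to 3005.9) and 1687.2 (1610.2 to 1764.3), a log2 difference of -0.78. Rps19, a small subunit protein needed for maturation of 18S rRNA and known from Diamond-Blackfan anaemia (chr7:24884601-24889814 in the control file), had 1283.1 (1225.2 to 1340.9) and 903.9 (863.3 to 944.5), a log2 difference of -0.51. In each of these 3 genes the intervals were far apart.

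The bounds of the locus differed between the files for Rpl31, Rpsa and Rps19. Rpl31 began at 39367800 in the control file and at 39367851 in the Klf9-OE file. FPKM is scaled to the length of the transcripts and not to the span of the locus, so different bounds show only that the transcripts assigned to the locus differed. Rpsa and Rps19 stood as loci assembled by Cufflinks in both files, and Rpl31 as an assembled locus in the control file and as the annotated one in the Klf9-OE file. Of the 8 ribosomal protein genes with different bounds, 3 were past the smaller limit (37.5%), and of the 66 with the same bounds 3 were (4.55%). Of the other highly expressed genes, 33.5% of those with different bounds and 21.2% of those with the same bounds were past it in either direction. The bounds of Rps21 were the same in both files. The part of the locus bounds in these differences was not tested.

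Rps23, a protein of the decoding centre, was the gene with the largest difference among the 15 that kept their annotated locus in both files (chr13:90923122-90924732). It had 1349.6 (1325.6 to 1373.6) and 1042.8 (1023.6 to 1061.9), a log2 difference of -0.37. Outside these 15 genes, Rpl15 had 431.4 (412.5 to 450.2) and 352.9 (337.5 to 368.3), a log2 difference of -0.29. Both had intervals apart. The median difference of the 15 genes was -0.09 and that of the other 59 was -0.12.

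Of the 10 genes with a higher FPKM in Klf9-OE PGCs, none was 25% higher. The largest difference was that of Rpl27, a large subunit protein (chr11:101442245-101445596), with 812.5 (781.9 to 843.1) in the control library and 1010.3 (971.3 to 1049.3) in the Klf9-OE library, a log2 difference of 0.31. Rps14, a small subunit protein near the mRNA exit, had 1632.5 (1560.5 to 1704.5) and 1927.6 (1865.4 to 1989.8), a log2 difference of 0.24. Rpl29 had 602.7 (589.3 to 616.1) and 659.6 (629.3 to 689.9), a log2 difference of 0.13. These genes, with Rpl39 and Rps4l, were the 5 whose intervals were apart and higher.

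The 4 X-linked genes were not shifted together. Rpl39 had 999.8 (972.0 to 1027.5) in the control library and 1154.3 (1106.5 to 1202.1) in the Klf9-OE library. Its locus was chrX:37082520-37085184 in the control file and an assembled one at chrX:36839149-37085241 in the Klf9-OE file. The part of these far wider bounds in the difference of Rpl39 was not tested. Rps4x had 1303.7 (1247.4 to 1360.1) and 1393.0 (1333.4 to 1452.5), with overlap. Rpl10, a late-joining protein of the large subunit, had 657.5 and 653.6, and the intervals overlapped. Rpl36a was lower, with 1364.0 (1337.3 to 1390.8) and 1263.4 (1240.1 to 1286.8) and intervals apart.

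The P-stalk recruits elongation factors to the large subunit. Its base protein Rplp0, also called Arbp and the gene to which the study normalised its RT-qPCR, had 842.7 (832.3 to 853.0) in the control library and 852.7 (843.2 to 862.1) in the Klf9-OE library, a log2 difference of 0.02 with overlapping intervals. The acidic stalk proteins were lower: Rplp1 had 3014.0 (2972.8 to 3055.2) and 2818.2 (2782.3 to 2854.2), and Rplp2 had 1900.4 (1814.8 to 1986.0) and 1616.1 (1543.5 to 1688.7). The intervals of Rplp1 and of Rplp2 were apart.

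Paralogue forms were expressed below their core counterparts. Rpl10l and Rpl39l are autosomal copies of X-linked genes that are known for their use in male germ cells, where the X chromosome is silenced at meiosis. Rpl10l had an FPKM of 97.5 (91.7 to 103.3) in the control library and 87.9 (84.3 to 91.5) in the Klf9-OE library, and Rpl39l had 126.3 (120.8 to 131.8) and 113.7 (107.0 to 120.5). Both were slightly lower in Klf9-OE PGCs, with intervals that were narrowly apart and that overlapped when the Klf9-OE half-widths were widened by the square root of 2.

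The ratio to the core gene shows how small these levels are beside those of the X-linked genes. Rpl10l stood at 14.8% of Rpl10 in control PGCs and 13.4% in Klf9-OE PGCs, and Rpl39l at 12.6% and 9.85% of Rpl39. The change in the ratio to Rpl39 is uncertain, because the Rpl39 locus was far wider in the Klf9-OE file. Rps4l, which RefSeq and GENCODE annotate as a transcribed pseudogene of Rps4x, had 304.7 (296.9 to 312.6) and 329.0 (313.5 to 344.4), which is 23.4% and 23.6% of Rps4x. Its values are uncertain as evidence of a protein.

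Rps27l, a form of Rps27 known as a p53 target, had 274.3 (258.3 to 290.2) and 301.4 (284.2 to 318.6), with overlap. This was 16.6% and 20% of the locus that holds Rps27 together with its retrogene Rps27rt. Rpl3l, a form of Rpl3 known from striated muscle, had 6.47 (5.53 to 7.42) and 4.89 (4.15 to 5.64), also with overlap, and was at 0.682% and 0.559% of Rpl3. No stretch of 51 bases, the read length of the libraries, was shared between the annotated transcripts of Rpl10 and Rpl10l, Rpl39 and Rpl39l, Rps4x and Rps4l, Rps27 and Rps27l, or Rpl3 and Rpl3l, so a read that matches without error could be told apart between the genes of a pair.

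Other copies could not be told apart as well. Of the 74 genes, 39 shared at least 50% of the 51-base stretches of their transcript with another annotated gene or pseudogene, 28 shared 10 to 50%, and 7 shared under 10%. The share was 69.9% for Rpl31, 43.9% for Rpsa, 25.6% for Rps21, 53.5% for Rps19, 64.0% for Rpl27 and 86.5% for Rps18. The values of genes with a high share are uncertain to the extent that reads were divided among copies. Genes that overlap at the same genomic position were not set apart from copies in this count. For Rpl31, the gene that shared most was the protein-coding Tbc1d8, with 37.0% of the stretches. The median difference was -0.11 in the genes with at least 50%, -0.12 in those with 10 to 50% and -0.15 in those with under 10%. Across the 69 core genes, the Spearman correlation of the difference with the shared percentage was 0.03, with transcript length -0.09, with GC content 0.10 and with the mean level 0.05. All of these points come from the same pair of libraries.

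The loci named for ribosomal protein copies, which are not among the 74 genes and were chosen after their values were seen, differed more than the genes they derive from in 5 of 6 cases, the exception being Rpl31-ps12. Rpl14-ps1 had an FPKM of 402.4 (382.5 to 422.4) in the control library and 206.6 (195.5 to 217.8) in the Klf9-OE library, a log2 difference of -0.96, beside -0.23 for Rpl14. Rpl37rt, a retrogene of Rpl37, had 178.4 (167.9 to 188.9) and 84.9 (79.3 to 90.5), a log2 difference of -1.07, beside -0.28 for Rpl37. Rps15a-ps4 and Rps15a-ps6 had differences of -0.97 and -1.08, beside -0.27 for Rps15a.

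The locus with the joint name of Rplp2-ps1 and Wdr89 had 93.9 and 45.4, a log2 difference of -1.05, beside -0.23 for Rplp2. Rpl31-ps12 had 409.0 (394.4 to 423.6) and 199.3 (190.0 to 208.5), a log2 difference of -1.04, close to the -1.08 of Rpl31 itself. All 6 differences lay between -1.08 and -0.96, a range that among the core genes held only Rpl31. A further locus, Rps19-ps3, was named in the Klf9-OE file only, with 48.8 (43.7 to 54.0), so that it has no difference. How reads that match several loci were divided among them is not given in the sources used here. The number of reads that an interval implies, the square of 2 times the FPKM over its distance to the upper bound, also behaved differently in the libraries. Among annotated loci with 1 to 9 such reads and a number within 0.06 of a whole one, it was even for 36.2% of 2131 loci in the control file (95% Wilson interval 34.2% to 38.3%) and for 88.1% of 1791 in the Klf9-OE file (86.5% to 89.5%), intervals that cover counting error only. The part of either in the differences of the copies and of Rpl31 was not tested. Of the 42 genes that RefSeq calls pseudogenes and that reached an FPKM of 10 in either library, 30 (71.4%) were at least 20% lower and 1 at least 25% higher, with a median of -0.71. Of 6230 protein-coding genes at the same minimum, 749 (12%) were at least 20% lower and 464 at least 25% higher, with a median of -0.03.

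**Figure D3:**
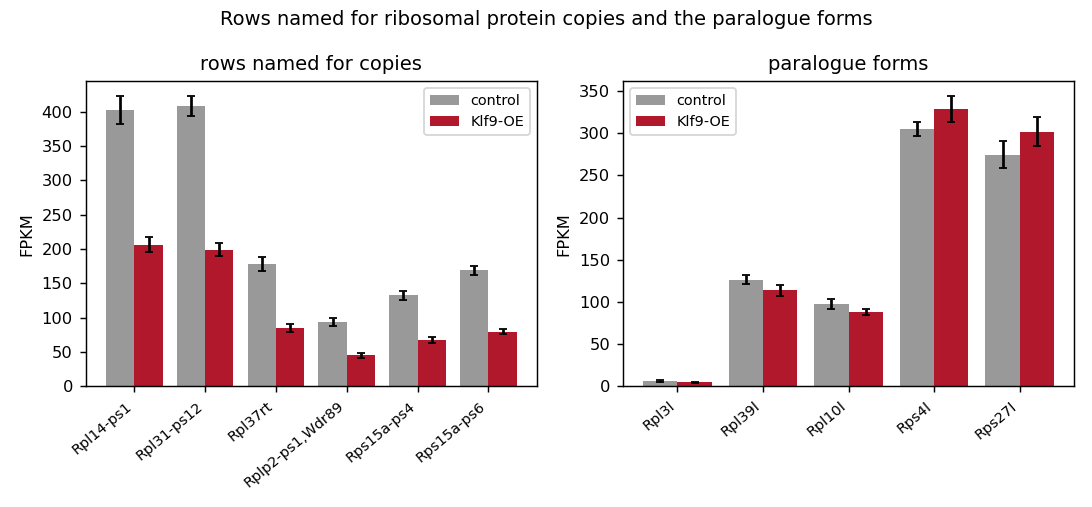
FPKM (y axes) in control and Klf9-OE PGCs of the 6 loci named for ribosomal protein copies (left) and of the 5 paralogue forms (right), with bars for the level and error bars for the 95% Cufflinks interval within a library. In each of the 6 copies the Klf9-OE bar reaches about to the middle of the control bar, whereas the bars of Rps4l and Rps27l are slightly higher and those of Rpl3l, Rpl10l and Rpl39l slightly lower in Klf9-OE PGCs.

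Ribosomal proteins whose loci carried joint names were left out by the rule and are given for completeness. In control and Klf9-OE PGCs, respectively, Rpl26 had an FPKM of 2597.5 and 2493.8, Rpl30 one of 1763.2 and 1636.7, Rpl34 one of 1458.2 and 1506.4, and Rpl13a one of 1219.9 and 1144.0. Rps27 with Rps27rt had 1653.8 and 1506.5. Rpl17, with 1272.5 and 1282.3, and Rpl22, with 139.9 and 142.4, carried a joint name in the Klf9-OE file only. All 7 differences were between -0.14 and 0.05.

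Proteins of the same ribosome with other kinds of names were measured for 6 genes, of which 5 were lower in Klf9-OE PGCs, with a median of -0.13, and 2 of these were at least 20% lower. Fau, which encodes the small subunit protein eS30 fused to a ubiquitin-like protein, had 1156.4 (1104.1 to 1208.7) and 913.6 (876.5 to 950.7), a log2 difference of -0.34. Rpl22l1, a paralogue of Rpl22, had 480.9 (454.1 to 507.6) and 371.8 (359.1 to 384.6), a log2 difference of -0.37. Gnb2l1, the scaffold protein RACK1 of the small subunit, had 1000.7 and 945.4, and Rpl7l1 had 61.2 and 62.4.

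In 3 other lists of the translation machinery, the share of lower genes was 66.7%, 47.1% and 58.3%. Of 12 TOP messages for elongation factors and related proteins, 8 were lower, none was past the smaller limit, and the median was -0.08. Eef1g, a subunit of elongation factor 1, had 821.0 and 714.9, and Eif3f, a subunit of initiation factor 3, had 147.0 and 128.5. In the other direction, the poly(A)-binding protein gene Pabpc1 had 639.7 (612.6 to 666.7) and 795.3 (767.4 to 823.2), a log2 difference of 0.31, and Tpt1 had 1045.2 and 1099.3.

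Of 34 ribosome biogenesis factors, 16 were lower and 18 higher, with a median of 0.02 and 2 at least 20% lower. Mdn1, an ATPase of 60S maturation, had 94.1 (91.2 to 97.0) and 60.5 (58.6 to 62.4). The snoRNP proteins Nop56 and Gar1 were higher, with 81.5 and 99.2 for Nop56 and 43.0 and 52.2 for Gar1, and intervals apart. Rrp9 had 93.6 and 66.3, but its control interval ran from 0 to 13847.5.

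Of 12 genes of mTORC1 and LARP1, the regulators of TOP messages, 3 were at least 20% lower and 1 at least 25% higher, with a median of -0.11. Mtor, the kinase of the complex, had 94.1 (90.6 to 97.6) and 61.3 (58.6 to 64.0), and Tsc2, an inhibitor upstream of it, had 15.8 (15.0 to 16.6) and 9.41 (8.82 to 9.99). Deptor had 1.26 and 1.70, and Rps6kb2, an S6 kinase, had 9.90 and 12.3. Both activating and inhibiting members were therefore among the lower genes.

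Lists of other large complexes served for comparison. The 71 mitochondrial ribosomal protein genes above 0, which encode the separate ribosome of mitochondria, had a median of -0.02 with 41 lower and 30 higher as deposited, and one of 0.04 with 22 lower and 49 higher at the same sum. Among them, 3 were at least 25% higher and 2 at least 20% lower. These counts include Mrpl18 and Mrpl49, listed at 0 in control PGCs and at 61.3 and 25.1 in Klf9-OE PGCs, and Mrps26, listed at 43.1 in control PGCs and at 0 in Klf9-OE PGCs, where a 0 can be a failed estimate. Mrpl39 had 90.1 (84.7 to 95.6) and 45.9 (43.3 to 48.5).

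The 33 proteasome subunit genes had a median of -0.01, with 18 lower and 15 higher and none past the smaller limit as deposited, and one of 0.05 with 12 lower and 21 higher at the same sum. Psmd10 had 22.1 and 17.9, Psmd9 11.3 and 9.28, Psmb10 21.0 and 25.1 and Psmd8 54.0 and 60.8. No test of the difference between these lists and the cytosolic ribosomal protein genes was possible with 1 library per condition.

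**Figure D4:**
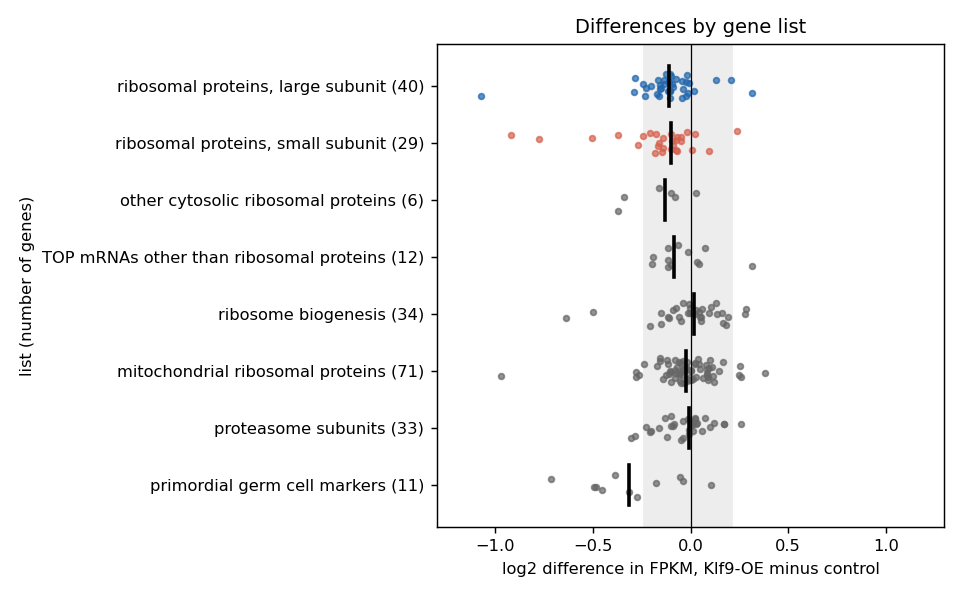
Difference in log2(FPKM + 0.1), Klf9-OE minus control (x axis), of each gene (points, spread vertically at random) in 8 lists (y axis, with the number of genes), with a black bar at the median of each list and a grey band over the quartiles of all genes tested (-0.24 to 0.21). The medians of both subunits lie at -0.11 and -0.10, those of ribosome biogenesis, mitochondrial ribosomal protein and proteasome genes at 0.02, -0.02 and -0.01 (0.08, 0.04 and 0.05 when rescaled to the same sum), and 3 mitochondrial ribosomal protein genes listed at 0 in a library lie outside the axis.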

How the data were processed

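RNA-seq libraries were made from total RNA with a TruSeq kit and sequenced as 51-base single-end reads. Per the methods and the submitters' processing notes, the authors aligned the reads to mm10 (TopHat2, Bowtie), quantified genes by Cufflinks and compared libraries by Cuffdiff. Tool versions are not given in the sources used here. The deposited values are FPKM per locus with 95% bounds. No read totals were given, so the depth is unknown, and precision was taken from the Cufflinks bounds, which cover estimation within a library only.

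FPKM was summed over loci of the same symbol. Differences used a pseudocount of 0.1, which understates changes of low genes. No count model or test was applied with 1 library per condition, and limits of 25% higher or 20% lower and of 2-fold were used. Loci without a gene name were not used.

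Shared 51-base stretches were counted on both strands over GENCODE vM21 transcripts, 1 transcript per gene examined. Promoters came from the RefSeq table of mm10 (250 bases before to 50 after the start), in which 55 of the 74 genes were matched. A planned comparison of protein sequences was not made, and shared stretches stand in its place.

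Genes named with values were the 6 highest control levels of each subunit, the P-stalk genes and Rpsa, the 6 largest differences of each direction at an FPKM of at least 10, X-linked genes, paralogue forms and Klf9. In the compared lists, they were the 2 largest differences of each direction at an FPKM of at least 1. Genes named beyond these were chosen after their values were seen. The genes and lists were chosen with earlier results of these data known. Alternatives were other pseudocounts, a minimum FPKM, other scalings, joint names and the highest locus per symbol. Those on annotated loci, locus bounds, shared stretches and the largest falls, and the counts of lower and higher genes by scale, were added after the data were seen. Calculations were tested on simulated data and ran in Python 3.11.15 (matplotlib 3.10.9, scipy 1.17.1, pandas 2.3.3, numpy 2.4.6).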

Additional observations from a re-analysis of the deposited data

How the results depend on the processing

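No paired analysis was possible because each condition has 1 library, and no replicate could be left out. The medians of all 74 genes and of each subunit stayed below 0 under every alternative run, but single genes and other lists changed sign with the scale. Of the 74 genes, 10 were higher as deposited, 16 at the same upper quartile, 21 at the same sum and 11 when centred on the median of all genes. In the same order, 86.5%, 78.4%, 71.6% and 85.1% of the 74 were lower, against 52%, 48.3%, 44.5% and 50% of all genes tested. The medians of mitochondrial ribosomal protein and proteasome genes were above 0 at the same upper quartile (0.006 and 0.019) and the same sum, and that of proteasome genes also when centred (0.005). Rescaled to the same sum, the median difference was -0.046 for all 74 genes (-0.11 as deposited), -0.046 for the large subunit and -0.038 for the small subunit, 18 genes were apart and lower (39 as deposited) and 8 apart and higher (5 as deposited). Of the large subunit core genes, only Rpl8 shares under 10% of its 51-base stretches. The large subunit value at that limit, -0.25, is therefore the difference of Rpl8 alone and not a median over several genes. At least 20% lower were 6 of 74 genes as deposited, 1 of the 15 with annotated loci only, 3 of the 66 with the same bounds in both files, 1 of the 7 with under 10% shared stretches and, by subtraction, 2 without the 4 largest falls, so these counts fall partly because fewer genes entered. At least 25% higher was none as deposited and 1 with each rescaling (upper quartile, sum and median of all genes), which was Rpl27. With annotated loci only, 8 genes were apart and lower and 1 apart and higher. With Klf9-OE half-widths widened by the square root of 2, as if its reads had been entered in duplicate, these were 31 and 4. Shares over all genes for intervals apart are given as deposited only, so these altered counts have no background. The share of summed FPKM was 22.1% in control PGCs and 21.0% in Klf9-OE PGCs over messenger RNA genes of at least 1 in both libraries, and 20.5% and 19.6% with joint names, against 18.7% and 17.7%. Pyrimidine starts numbered 25 within 5 bases of the RefSeq start and 12 exactly at it. The other 38 planned and 19 added values moved by less than the spread of the median or by less than 1.5 times for counts. No read totals were used here, so limits set by depth were not computed.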

Other observations

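Of the 12 reference genes used in expression studies, none was at least 25% higher or 20% lower, the median difference was 0.004, and the intervals of 1 were apart and higher and those of 1 apart and lower. Gapdh, a glycolytic enzyme, had an FPKM of 275.1 in control PGCs and 221.7 in Klf9-OE PGCs, a log2 difference of -0.31, which is a larger difference than that of Rplp0. Core ribosomal protein genes lay on 18 chromosomes, with 13 of the 69 on chromosome 7.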
